A study of Mus musculus with 6 samples.

Results

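Amino acid transporters are the membrane proteins through which a macrophage takes up and releases amino acids. The 10 transporter genes described here are Slc7a11, Slc7a2, Slc7a1, Slc7a5, Slc3a2, Slc6a9, Slc36a2, Slc38a2, Slc1a4 and Slc1a5, which are 10 of the 24054 genes in the deposited table. They were picked by gene symbol, with earlier results from these 6 libraries known, so their response to oxidised low-density lipoprotein (oxLDL) is given as a description without a test. All 10 passed the filter on low counts, also when the filter saw only the 3 untreated libraries.

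Macrophages were grown from bone marrow for 7 days with L929-conditioned medium, the supernatant of mouse fibroblasts, used as a source of macrophage colony-stimulating factor. The mice were C57BL/6 wild type or C57BL/6-Kindlin3-integrin mutant. Kindlin-3, the product of Fermt3, is an adaptor of blood cells that switches integrins on, and the labels do not say what the mutation is. Cells were kept for 24 hours with 50 µg/ml oxLDL, the lipoprotein that turns macrophages into foam cells, or with none. The mutant was sequenced in 2 untreated and 2 oxLDL libraries and the wild type in 1 library of each, from polyadenylated RNA. All groups went through the same culture protocol, and nothing in the labels says that the mutant pairs came from separate mice or cultures, and p-values therefore speak only of how much these libraries vary, which may be technical.

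Cystine enters cells through system xc-, a pair of Slc7a11 and the heavy chain Slc3a2 that exports glutamate in exchange, and the cysteine made from it limits glutathione synthesis. Arginine and lysine enter through the cationic carriers Slc7a1 and Slc7a2, and in macrophages arginine feeds nitric oxide synthase and arginase. Small neutral amino acids enter through Slc38a2, Slc1a4, Slc1a5, Slc36a2 and Slc6a9, and large neutral ones through Slc7a5 paired with Slc3a2. Many transporter genes are known targets of ATF4, the transcription factor of the amino acid stress response, and Slc7a11 is also a known target of NRF2, the factor of the oxidant response.

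Libraries held between 11281659 and 24273497 counts. Levels are given as CPM, counts scaled to library size with a TMM factor (trimmed mean of M-values), in which 3 counts correspond to 0.122 to 0.265 CPM. The 10 macrophage markers were present in all 6 libraries, with summed levels of 13900 to 34000 CPM. The 19 pancreatic transcripts summed to 161 to 272 CPM in both mutant oxLDL libraries and the wild-type untreated library, with all 19 present there, and to 1.85 to 3.47 CPM in the other 3. Neutrophil markers summed to 45.2 CPM in the wild-type untreated library, against 5.18 to 7.36 CPM in the other 5. Dendritic cell markers summed to 46.1 to 61.1 CPM in the mutant and 12.1 to 15.4 CPM in the wild type. Osteoclast markers summed to 164 to 284 CPM with oxLDL and 62.3 to 92.5 CPM without, with Calcr at 0 in every library. Fibroblast markers summed to 0.256 to 3.26 CPM, and mast cell, lymphocyte and erythroid markers to at most 10 CPM, with Cd3e and Ncr1 at 0. Fermt3 itself averaged 245 ± 5.62 CPM (SD, n = 2) in untreated and 149 ± 5.22 CPM (SD, n = 2) in oxLDL-treated mutant cells, against 403 and 188 CPM in the wild type.

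RefSeq promoter entries on GRCm38.p6 were found for 6 of the 10 genes, namely Slc7a11, Slc7a1, Slc3a2, Slc6a9, Slc38a2 and Slc1a4, with 9 windows between them. Each window runs from 250 bases before to 50 bases after an annotated start site. It was searched on both strands for TGATGNAA, the core of the C/EBP-ATF response element read by ATF4, and for TGACNNNGC, the core of the antioxidant response element read by NRF2. TGATGNAA occurred in 2 of the 9 windows, of Slc7a11 and Slc1a4, and in 3.97% of 32851 mouse promoter windows of the same length. TGACNNNGC occurred in 4 of the 9 windows, of Slc7a1, Slc38a2 and Slc6a9, and in 12.4% of all windows. No window of these genes held both motifs, and the Slc3a2 window held neither. The stretches that hold a match are shown because most of these genes were higher with oxLDL, with 160 bases each, 5′ to 3′ on the gene's strand, and the matches in capitals.
Slc7a11, chr3:50443604-50443763, minus strand, TGATGNAA matches at 66 and 47 bases before the start: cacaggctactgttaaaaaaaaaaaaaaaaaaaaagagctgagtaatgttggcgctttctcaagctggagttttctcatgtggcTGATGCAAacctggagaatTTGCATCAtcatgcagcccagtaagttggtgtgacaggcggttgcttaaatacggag
Slc1a4, chr11:20332704-20332863, minus strand, a TGATGNAA match at 4 bases before the start: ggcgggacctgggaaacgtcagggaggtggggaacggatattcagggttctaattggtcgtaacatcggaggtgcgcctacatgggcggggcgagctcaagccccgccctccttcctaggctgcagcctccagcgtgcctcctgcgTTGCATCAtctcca
Slc38a2, chr15:96699719-96699878, minus strand, a TGACNNNGC match at 27 bases before the start: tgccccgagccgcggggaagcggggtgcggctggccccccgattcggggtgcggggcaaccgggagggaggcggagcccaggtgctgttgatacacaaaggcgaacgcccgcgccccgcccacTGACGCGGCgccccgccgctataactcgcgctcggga
Slc7a1, chr5:148399895-148400054, minus strand, a TGACNNNGC match at 11 bases before the start: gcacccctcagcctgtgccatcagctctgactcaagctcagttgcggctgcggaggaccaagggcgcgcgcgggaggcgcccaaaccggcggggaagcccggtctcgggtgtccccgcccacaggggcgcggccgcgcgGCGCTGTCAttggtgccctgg
Slc6a9, chr4:117849200-117849359, plus strand, a TGACNNNGC match at 46 bases before the start: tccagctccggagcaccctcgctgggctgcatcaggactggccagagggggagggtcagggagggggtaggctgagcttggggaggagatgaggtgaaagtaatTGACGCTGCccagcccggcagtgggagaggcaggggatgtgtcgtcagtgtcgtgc
Slc6a9, chr4:117855397-117855556, plus strand, a TGACNNNGC match at 45 bases before the start: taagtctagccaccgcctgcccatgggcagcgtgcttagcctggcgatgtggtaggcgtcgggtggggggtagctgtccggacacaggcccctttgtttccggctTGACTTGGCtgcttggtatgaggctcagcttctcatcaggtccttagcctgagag
A match describes letters in the window and was not measured as a binding site here. These positions come from RefSeq alone, and the genome build used for the counts was not stated clearly enough to set beside them.

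**Figure D1:**
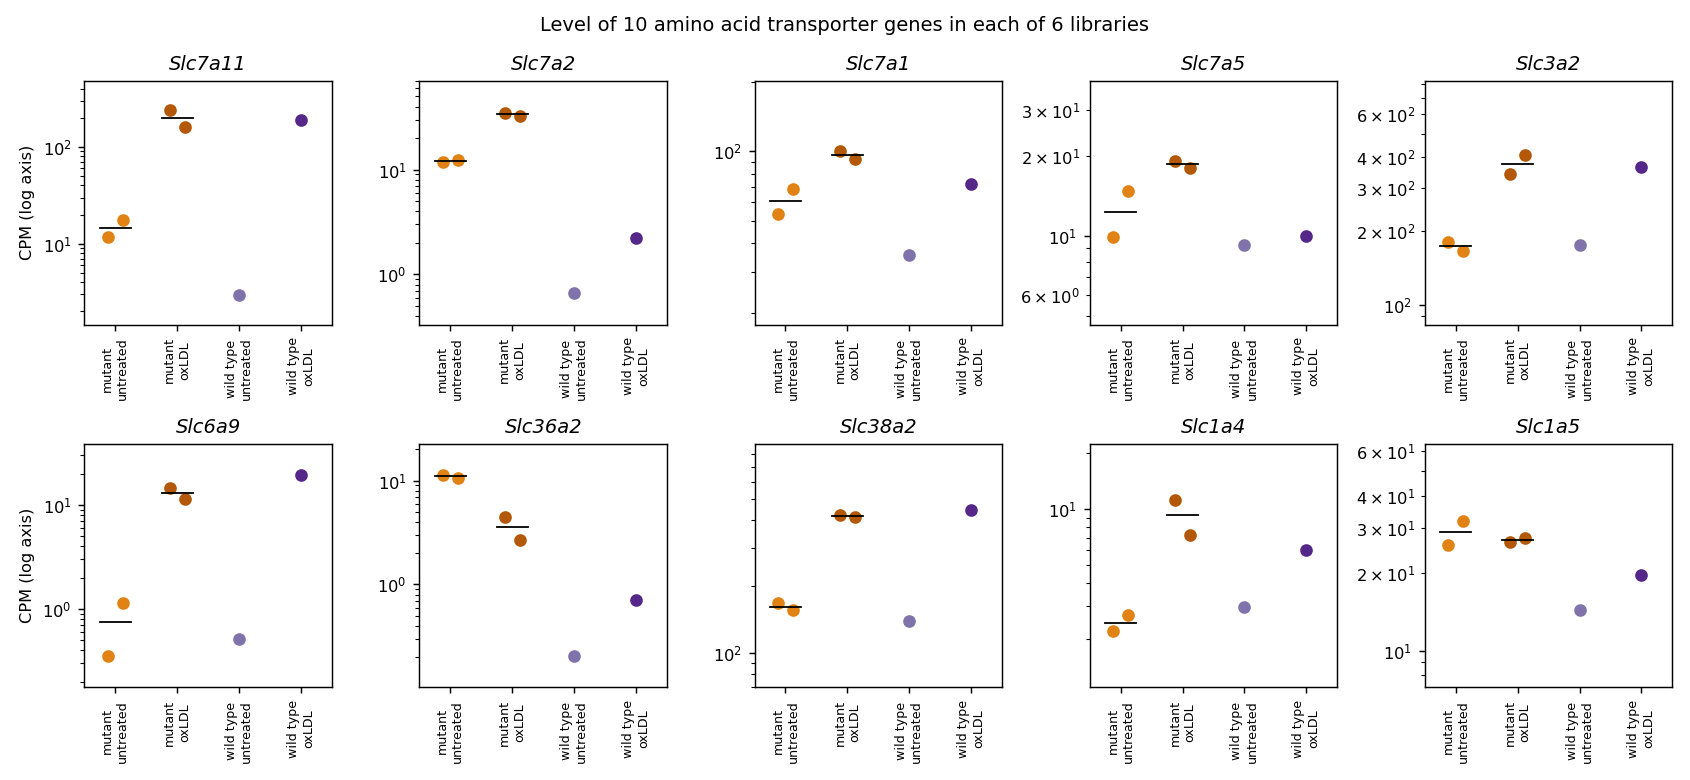
Level of each of the 10 transporter genes in the 6 libraries, in CPM on a log axis whose range differs between panels. Each point is 1 library, and the bar in the mutant groups is the mean of 2. Slc7a11, Slc7a1, Slc3a2, Slc6a9, Slc38a2 and Slc1a4 were higher in all 3 oxLDL libraries than in any untreated one, and Slc7a2, Slc36a2 and Slc1a5 were higher in all 4 mutant libraries than in either wild-type one.

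The question of the treatment comparison was how loading with oxLDL changes gene expression in cells of each genotype. In mutant cells the log2 fold change with oxLDL was above 0 for 8 of the 10 transporter genes and below 0 for Slc36a2 and Slc1a5. Because the members were picked with this response known, it is given without a test and nothing is read from the count. Their median log2 fold change was 1.24, and that of all genes tested 0.01. In all 3 oxLDL libraries 6 of the 10 genes exceeded all 3 untreated ones, as did 24.5% of the genes tested. In the wild type, with 1 library per treatment and no replicate check, 5 of the 8 members with at least 5 CPM in either library were at least 2-fold higher with oxLDL, against 7.92% of 9840 genes. In bulk RNA, fewer cells of a type and less RNA per cell cannot be told apart.

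The system xc- pair was higher with oxLDL in both genotypes, the cystine-carrying light chain far more than the heavy chain. Slc7a11 measured 11.6 and 17.5 CPM in the untreated mutant libraries and 240.0 and 159.9 CPM in those given oxLDL. In the wild type it measured 2.92 CPM untreated and 189 CPM with oxLDL. The treated wild-type library lay between the 2 treated mutant libraries, whereas the untreated wild-type library was far below both untreated mutant libraries. The fold change was 13.7 in the mutant (log2 3.77, SE 0.28) and 64.9 in the wild type. Slc3a2, which carries Slc7a11 and Slc7a5 to the cell surface, measured 181 and 166 CPM in untreated mutant cells and 341 and 409.6 CPM with oxLDL. Its wild-type libraries measured 175 and 364 CPM, so that the genotypes overlapped in each treatment and the treatments did not overlap. The fold change of Slc3a2 was 2.16 in the mutant (log2 1.11, SE 0.12) and 2.08 in the wild type. Of the sequence of Slc3a2, 2.68% of 75-base stretches also occur in other genes, and none of Slc7a11.

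Among the cationic carriers, Slc7a1 and Slc7a2 were both higher with oxLDL, from very different starting levels. Slc7a1, the widely expressed arginine and lysine carrier, measured 53.6 and 68.5 CPM in untreated and 100.5 and 92.9 CPM in oxLDL-treated mutant cells. In the wild type Slc7a1 measured 35.6 and 72.2 CPM. The fold change was 1.58 in the mutant (log2 0.66, SE 0.14) and 2.03 in the wild type, with every treated library above every untreated one. Slc7a2, the carrier associated with cytokine-activated macrophages, measured 11.9 and 12.3 CPM in untreated and 35.0 and 32.5 CPM in treated mutant cells. The wild-type libraries held 13 and 35 counts of Slc7a2, or 0.665 CPM untreated (exact 95% interval of the count 0.354 to 1.14 CPM) and 2.24 CPM with oxLDL (1.56 to 3.11 CPM). These intervals cover counting error only. The fold change of Slc7a2 was 2.79 in the mutant (log2 1.48, SE 0.13) and 3.36 in the wild type, while both wild-type libraries stayed below all 4 mutant ones.

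The carriers of small neutral amino acids divided into those that were higher with oxLDL and those that were not. Slc38a2, the sodium-coupled carrier of alanine, serine and glutamine that is known to rise when amino acids are short, measured 168 and 156 CPM in untreated and 422 and 415 CPM in treated mutant cells. Its wild-type libraries measured 139 and 447 CPM, and the fold change was 2.59 in the mutant (log2 1.37, SE 0.10) and 3.22 in the wild type. Treated libraries of both genotypes lay close together and well above the untreated ones. Slc1a4, an exchanger of alanine, serine and cysteine, measured 2.21 and 2.69 CPM untreated and 11.2 and 7.28 CPM with oxLDL in the mutant, and 2.97 and 6.01 CPM in the wild type. Its fold change was 3.78 in the mutant (log2 1.91, SE 0.30) and 2.03 in the wild type. Slc1a5, the related exchanger that also carries glutamine, measured 25.8 and 31.9 CPM untreated and 26.5 and 27.3 CPM with oxLDL in the mutant. The treated mutant libraries fell between the untreated ones (log2 -0.10, SE 0.14), and the sign was 0.07 without the second untreated mutant library. In the wild type Slc1a5 measured 14.4 and 19.7 CPM.

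Slc6a9, the glycine transporter GlyT1, went from near the detection limit to a readily measured level. Untreated mutant libraries held 4 and 16 counts, or 0.353 CPM (exact 95% interval 0.0962 to 0.904) and 1.13 CPM (0.647 to 1.84), and treated ones 361 and 229 counts, or 14.6 and 11.3 CPM. The wild-type libraries held 10 and 303 counts, or 0.511 and 19.4 CPM. The fold change was 17.5 in the mutant (log2 4.06, SE 0.41) and 37.9 in the wild type. The low untreated counts leave the size of this fold uncertain, and in the mutant its log2 value ranged from 3.53 to 5.18 over 11 alternative analyses. Every treated library nevertheless held 229 counts or more and every untreated one 16 or fewer.

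With oxLDL, Slc7a5 was higher in the mutant and nearly level in the single wild-type pair, and Slc36a2 was lower in the mutant. Slc7a5, the light chain of the leucine and tryptophan carrier, measured 9.97 and 14.8 CPM in untreated and 19.2 and 18.1 CPM in treated mutant cells, with wild-type values of 9.31 and 10 CPM. The treated mutant libraries were the highest, the 2 wild-type libraries lay close together, and the difference in the mutant was log2 0.59 with an SE of 0.21. Slc36a2, a proton-coupled carrier of glycine, alanine and proline, measured 11.3 and 10.6 CPM in untreated and 4.42 and 2.67 CPM in treated mutant cells, a 3.09-fold lower level (log2 -1.62, SE 0.29). In the wild type it measured 0.205 CPM untreated and 0.703 CPM with oxLDL, from 4 and 11 counts. The exact 95% intervals of those counts were 0.0557 to 0.524 and 0.351 to 1.26 CPM and cover counting error only. With 1 library per treatment, no direction is read in the wild type. Of Slc36a2, 1.98% of 75-base stretches are shared with other genes, mainly the neighbour Slc36a1.

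Within the osteoclast and macrophage marker lists the genes did not move together with oxLDL. The higher osteoclast sum was mostly Atp6v0d2, a proton pump subunit, at 15.3 to 59.8 CPM untreated and 148 to 261 CPM treated, while Acp5 was lower with oxLDL on average (30.5 ± 19.0 and 7.27 ± 3.45 CPM in the mutant, SD, n = 2, and 44.8 and 6.01 CPM in the wild type). The macrophage sum was lower in treated libraries of each genotype, with Lyz2 its largest member. Emr1 was lower with oxLDL (means of 4421.9 and 819 CPM in the mutant, 6186.9 and 1095.6 CPM in the wild type). Csf1r, Cd14 and Fcgr1 were also lower in both genotypes, with log2 changes of -1.44, -2.57 and -3.26 in the mutant. Cd68 was higher with oxLDL (966 and 1336.6 against 1884.1 and 2135.9 CPM in the mutant, 858 and 1801 CPM in the wild type), as was Mertk (log2 0.93 in the mutant). Lyz2, Mrc1, Msr1 and Ctss changed less in the mutant. Pancreatic transcripts were higher in treated mutant cells, and in the wild type, with 1 library per treatment, they summed to 272 CPM untreated and 1.85 CPM with oxLDL. The part of these marker genes in the transporters' values was not tested in either genotype. Leaving out each library in turn kept the sign of all members' response in the mutant but that of Slc1a5.

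**Figure D2:**
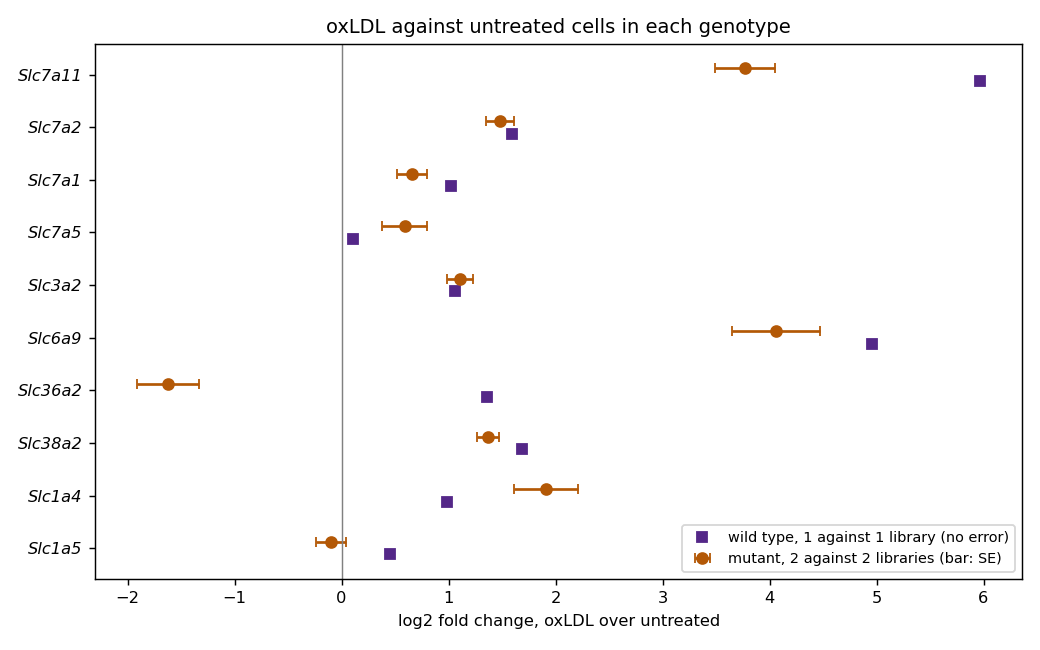
Log2 fold change of oxLDL-treated over untreated cells for each transporter gene, in the mutant (circles, 2 against 2 libraries, bar 1 SE) and the wild type (squares, 1 against 1, no error). The largest changes were those of Slc7a11 and Slc6a9, and Slc36a2 lay at -1.62 in the mutant and 1.36 in the wild type, the latter from 4 and 11 counts.

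Levels of different genes can be compared only per length, so CPM were divided by the longest coding transcript of each gene in GENCODE vM21 (2429 bases for Slc36a2 to 9223 for Slc7a11). On this scale Slc3a2 was the most abundant of the 10 in all 4 groups, at 61.7 CPM per kb in untreated and 133 in treated mutant cells, and Slc38a2 was next, at 34.7 and 89.8. In untreated mutant cells Slc1a5 (10.4 CPM per kb) and Slc7a1 (8.50) followed, then Slc36a2 (4.51) and Slc7a5 (3.52), then Slc7a11 (1.58) and Slc7a2 (1.53), and Slc1a4 (0.623) and Slc6a9 (0.213) were lowest. Slc7a11 and Slc7a2 did not differ beyond the spread of Slc7a11 between its 2 libraries. With oxLDL, Slc7a11 moved from the seventh to the third place, at 21.7 CPM per kb in the mutant and 20.5 in the wild type. Slc36a2 moved from the fifth to the last place in the mutant (1.46 CPM per kb), close to Slc1a4 (2.36). In untreated wild-type cells Slc36a2 (0.0842 CPM per kb) and Slc7a2 (0.0841) were the lowest, and with 4 and 13 counts they cannot be ranked.

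The genotype comparison asked how the Kindlin3-integrin mutation changes expression in macrophages with and without oxLDL. Slc7a2 was higher in the mutant with and without oxLDL, Slc36a2, Slc7a11 and Slc1a5 were higher in untreated mutant cells, and 6 of the 10 genes passed in no genotype test. With treatment as a term in edgeR's quasi-likelihood fit, 2 of the 10 members passed at an adjusted p under 0.05, both higher in the mutant, against 2.54% higher and 1.51% lower of all genes tested. In untreated cells 4 members passed, all higher, against 7.06% of all genes in either direction. In oxLDL-treated cells 1 member passed, against 0.481%. All 4 mutant libraries exceeded both wild-type libraries for 3 members, against 8.49% of genes tested. Each wild-type arm is 1 library, assumed to vary like the mutant pairs, and since the members were picked with earlier results known, these counts are no independent support.

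Slc7a2 had the most stable genotype difference. It was 18.2-fold higher in untreated mutant than wild-type cells (log2 4.17, SE 0.24, adjusted p = 0.00493, edgeR) and 15.1-fold higher with oxLDL (log2 3.91, SE 0.21, adjusted p = 0.00949, edgeR). Across treatments the log2 difference was 4.01 (SE 0.16, adjusted p = 0.000557, edgeR), with 4 of 4 mutant libraries above both wild-type ones. It passed in every alternative analysis run, with a highest adjusted p of 0.0181 across treatments, 0.0251 in untreated and 0.0450 in oxLDL-treated cells. The gap between genotypes, 0.665 and 2.24 CPM against 11.9 to 35.0 CPM, exceeded the response to oxLDL within either genotype. Among the dendritic cell markers Itgax, an integrin gene that macrophages also express, was higher in all 4 mutant libraries too (42.5 to 58.7 CPM against 6.14 and 13.7 CPM) and made up most of their sum in the mutant. Xcr1 was not, at 1.54 to 4.81 CPM in the mutant and 5.22 and 1.34 CPM in the wild type, and the other 5 were at most 0.441 CPM. The part of Itgax in the Slc7a2 difference was not tested.

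Slc36a2 was 53.5-fold higher in untreated mutant than wild-type cells (log2 5.69, SE 0.56, adjusted p = 0.0122, edgeR), a ratio that rests on 4 counts in the wild type. With oxLDL it was 5.05-fold higher (log2 2.33, SE 0.48), which did not pass (adjusted p = 0.127, edgeR). Across treatments the log2 difference was 3.83 (SE 0.73, adjusted p = 0.0454, edgeR). This last call was lost without either untreated mutant library (adjusted p = 0.112 and 0.146, edgeR), without the first treated mutant library (0.0937) or without the wild-type untreated library (0.118). The untreated call was lost without the first untreated mutant library (0.0542). In all of these fits Slc36a2 was higher in the mutant.

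Slc7a11 was 5.01-fold higher in untreated mutant cells (log2 2.33, SE 0.41, adjusted p = 0.0346, edgeR), with 11.6 and 17.5 CPM against 2.92 CPM. With oxLDL the ratio was 1.06 (log2 0.08, SE 0.29, adjusted p = 0.923, edgeR), and the wild-type library lay between both mutant ones. Slc1a5 was 2.01-fold higher in untreated mutant cells (log2 1.01, SE 0.18, adjusted p = 0.0353, edgeR) and 1.37-fold higher with oxLDL (log2 0.45, SE 0.18, adjusted p = 0.327, edgeR). Both untreated calls were lost when either untreated mutant library was left out, with adjusted p of 0.0760 and 0.0771 for Slc7a11 and 0.0808 and 0.0954 for Slc1a5 in edgeR. The wild-type untreated library behind these differences is the one with the highest sums of pancreatic and neutrophil markers, whose part was not tested.

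Slc7a1 was 1.71-fold higher in untreated mutant cells (log2 0.78, SE 0.18, adjusted p = 0.0574, edgeR), which passed in 4 of 9 alternatives, among them no low-count filter (adjusted p = 0.00118) and DESeq2 (0.0135), and 1.34-fold higher with oxLDL (log2 0.42, SE 0.17, adjusted p = 0.347, edgeR). Slc7a5 was 1.33-fold and 1.86-fold higher, with adjusted p of 0.368 untreated and 0.229 with oxLDL in edgeR. Slc3a2 and Slc38a2, the most abundant of the set, differed by at most 1.16-fold between genotypes in each treatment, with log2 differences of -0.01 (SE 0.15) and 0.04 (SE 0.15) for Slc3a2 and 0.22 (SE 0.12) and -0.10 (SE 0.11) for Slc38a2. Slc1a4 and Slc6a9 had log2 differences of -0.27 (SE 0.38) and 0.59 (SE 0.69) untreated and of 0.63 (SE 0.34) and -0.57 (SE 0.35) with oxLDL.

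None of the 10 members passed edgeR's test of whether the oxLDL response differed between genotypes, which 0.489% of all genes passed. The genes that passed include pancreatic transcripts, which were present in both treated mutant libraries and the untreated wild-type one, such as Amy2a5 (interaction log2 27.59). At an unadjusted p under 0.05, 2 did (Slc7a11 and Slc36a2), and in DESeq2 1 passed after adjustment. The log2 response of Slc36a2 was lower in the mutant than in the wild type by the widest margin (interaction -3.36, SE 0.82, adjusted p = 0.248, edgeR). That of Slc7a11 was also lower in the mutant (-2.25, SE 0.50, adjusted p = 0.213, edgeR), and its levels were 5.01-fold apart untreated and 1.06-fold with oxLDL. The Slc7a11 value passed with no filter on low counts (adjusted p = 1.9e-05), in DESeq2 (0.000532) and in edgeR without the first treated mutant library (0.0163). Slc36a2 passed with no filter only (0.00856). For Slc7a2 the interaction was -0.26 (SE 0.32) and for Slc3a2 0.06 (SE 0.21).

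**Figure D3:**
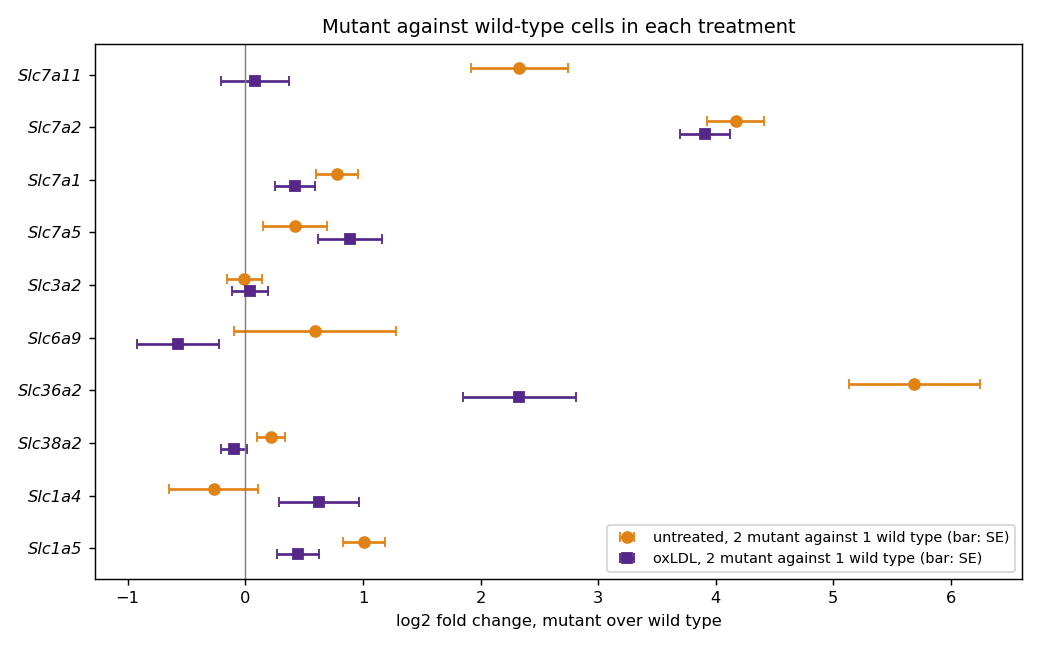
Log2 fold change of mutant over wild-type cells for each transporter gene in untreated (circles) and oxLDL-treated cells (squares), each 2 libraries against 1, with bars of 1 SE. Slc7a2 lay near 4 in both treatments, whereas Slc7a11 lay at 2.33 untreated and 0.08 with oxLDL.

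Other amino acid transporters were tested for oxLDL in the mutant from lists outside the 10 members. Of 70 further transporter genes on 3 lists, 42 passed the filter, and 9 of them rose, 8 fell and 25 did not pass (edgeR's quasi-likelihood test, p adjusted over all tested genes, under 0.05). Of the 12689 genes tested 16.5% were higher and 19.1% lower by this rule, so these counts are near those of all genes. Their median log2 change was 0.18 in the mutant and 0.10 in the wild type, against 0.01 and -0.00 for all genes. The 17 calls became 10 without the second untreated mutant library, 8 of them higher. At the plasma membrane 1 of 15 rose and 3 fell. The riser was Slc6a8, a creatine rather than an amino acid carrier, from 200.4 ± 10.3 to 633 ± 101 CPM (SD, n = 2; log2 1.66). The 3 that fell were Slc16a10, a carrier of aromatic amino acids, from 269.9 ± 16.1 to 88.7 ± 5.38 CPM (log2 -1.61), Slc7a8, a partner of Slc3a2, from 186 ± 4.44 to 78.4 ± 1.82 CPM (log2 -1.24), and Slc7a7, the y+LAT1 partner of Slc3a2, from 49.0 ± 7.71 to 24.0 ± 10.6 CPM (log2 -1.04), each SD with n = 2. Of the other light chains that pair with Slc3a2, Slc7a6 measured 18.3 ± 1.93 and 22.8 ± 1.71 CPM (SD, n = 2), which did not pass (adjusted p = 0.131, edgeR). Among the measured partners of this heavy chain, Slc7a11 had the largest value and Slc7a8 and Slc7a7 the opposite sign. Slc6a6, the taurine carrier, measured 1766.3 ± 106 and 2267.4 ± 72.1 CPM (SD, n = 2) and did not pass (adjusted p = 0.0990, edgeR).

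Of 15 lysosomal and vesicular transporters, 6 rose and 2 fell. Ctns, which carries cystine out of lysosomes, rose from 32.2 ± 6.44 to 78.0 ± 3.29 CPM (SD, n = 2; log2 1.28), and Mfsd12, needed for cysteine import into lysosomes, from 38.6 ± 7.50 to 91.0 ± 6.28 CPM (log2 1.24). Slc38a7, a lysosomal glutamine carrier, rose from 54.0 ± 8.0 to 122 ± 2.75 CPM (log2 1.18). Slc36a1, the lysosomal relative of Slc36a2, rose from 57.9 ± 15.5 to 99.4 ± 2.83 CPM (log2 0.78) where Slc36a2 was lower, and Slc36a4 from 25.4 ± 1.46 to 46.4 ± 2.38 CPM (log2 0.87). The sixth, Slc29a3, is a nucleoside carrier. Slc7a14 fell from 14.1 ± 0.138 to 7.51 ± 1.09 CPM (log2 -0.91), and Slc15a3, a histidine and peptide carrier, from 255 ± 32.4 to 166 ± 18.6 CPM (log2 -0.62). Of 12 mitochondrial carriers 2 rose and 3 fell, among them the branched-chain carrier Slc25a44 with log2 1.37 and the glutamate carrier Slc25a18 with log2 -2.29, the latter at under 1 CPM in every group mean.

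Between genotypes, 1 of these 42 genes passed across treatments and 4 in untreated cells, against 2.54% higher and 1.51% lower across treatments and 7.06% in untreated cells over all genes. Slc15a3 was lower in the mutant across treatments (log2 -0.77, adjusted p = 0.0328, edgeR), with 153 to 278 CPM in the mutant and 262 and 469 CPM in the wild type. In untreated cells Slc6a8 (log2 1.28, adjusted p = 0.0240), the betaine carrier Slc6a12 (log2 1.2, adjusted p = 0.0409) and the sideroflexin Sfxn3 (log2 0.89, adjusted p = 0.0283) were higher in the mutant by edgeR.

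Genes that use what these carriers bring in were counted from further lists, for oxLDL in the mutant. Of 18 genes of cystine and glutathione use, 11 rose and 7 did not pass, with a median log2 change of 1.14 in the mutant and 1.31 in the wild type. Gclc and Gclm, the catalytic and modifier subunits of the first enzyme of glutathione synthesis, rose from 28.3 ± 3.26 to 91.1 ± 7.54 CPM (log2 1.68) and from 124 ± 19.0 to 373 ± 45.6 CPM (log2 1.59; SD, n = 2). Gsr, which reduces glutathione, rose by log2 1.44, and Anpep, an aminopeptidase that splits the cysteine and glycine dipeptide left by glutathione breakdown, by log2 1.82. The list of 13 NRF2 reference genes, which shares members with the preceding one, had 11 that rose and 2 that did not pass. Srxn1, which repairs oxidised peroxiredoxins, measured 79.1 ± 3.15 and 542 ± 101 CPM, and Hmox1, which degrades haem, 195 ± 28.3 and 706 ± 44.1 CPM (SD, n = 2).

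Among 17 genes of arginine and ornithine use, 2 rose, 5 fell and 10 did not pass, and the median was -0.17 in the mutant and -0.04 in the wild type. Gatm, which makes the creatine precursor from arginine, fell from 266 ± 71.9 to 25 ± 3.10 CPM (SD, n = 2; log2 -3.41) and measured 283 and 45.4 CPM in the wild type. Ckb, creatine kinase, fell by log2 1.28, while Aldh18a1, which commits glutamate to proline and ornithine, rose by log2 0.94. Nos2, a nitric oxide synthase, fell from 1.11 ± 0.327 to 0.0653 ± 0.0223 CPM (SD, n = 2; log2 -3.94, adjusted p = 0.0111, edgeR). Its counts were low, with 10 and 19 in untreated and 2 and 1 in treated mutant libraries. The wild-type libraries held 3 counts of Nos2 untreated and 0 with oxLDL. Arg1, the cytosolic arginase, was not tested, with at most 1 count in any library. Among 14 genes of glycine and serine use, 4 rose and 1 fell. Phgdh, the first enzyme of serine synthesis, rose from 7.99 ± 0.813 to 55.2 ± 5.88 CPM (SD, n = 2; log2 2.78), with 35.8% of its 75-base stretches shared with other genes, so its counts are uncertain. Mthfd2, the mitochondrial folate enzyme, rose by log2 1.23. Among 16 genes of glutamine and branched-chain use, 6 rose and 3 fell: Asns, asparagine synthetase, rose from 30.7 ± 3.39 to 120 ± 0.818 CPM (log2 1.96), and Glul, glutamine synthetase, fell from 274 ± 13.9 to 156 ± 6.66 CPM (log2 -0.81; SD, n = 2).

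The stress response list held 19 genes, of which 11 rose, 6 fell and 2 did not pass. The 6 that fell were Eif2ak2 (log2 -1.78), Ddit4 (log2 -1.72), Vldlr (log2 -1.57), Cebpb (log2 -0.73), Herpud1 (log2 -0.58) and Sesn2 (log2 -0.42). Atf4 rose from 96.6 ± 9.01 to 295 ± 15.9 CPM (log2 1.61; SD, n = 2). Atf5, from 13.6 ± 2.89 to 234 ± 12.1 CPM (log2 4.12), and Trib3, from 2.21 ± 0.621 to 31.9 ± 3.64 CPM (log2 3.87), rose by more (SD, n = 2). The wild-type libraries measured 99.0 and 298 CPM of Atf4 and 19.9 and 224 CPM of Atf5. Of 20 cytosolic tRNA synthetases, which load amino acids onto tRNA, 12 rose and 8 did not pass, with a median of 0.48 in the mutant and 0.47 in the wild type. Sars, for serine, rose from 84.9 ± 8.81 to 249 ± 2.16 CPM (log2 1.55), and Cars, for cysteine, from 41.0 ± 3.20 to 87.3 ± 1.60 CPM (log2 1.09). Of 24 genes of amino acid sensing by mTORC1, 10 rose and 2 fell, with Fnip2 and Rragd, of the folliculin and Rag GTPase branch, higher by log2 1.79 and 1.77 and Sesn1, a sensor subunit, lower by log2 2.12. These lists were written with earlier results known, and their counts are descriptions beside the 16.5% higher and 19.1% lower over all genes.

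**Figure D4:**
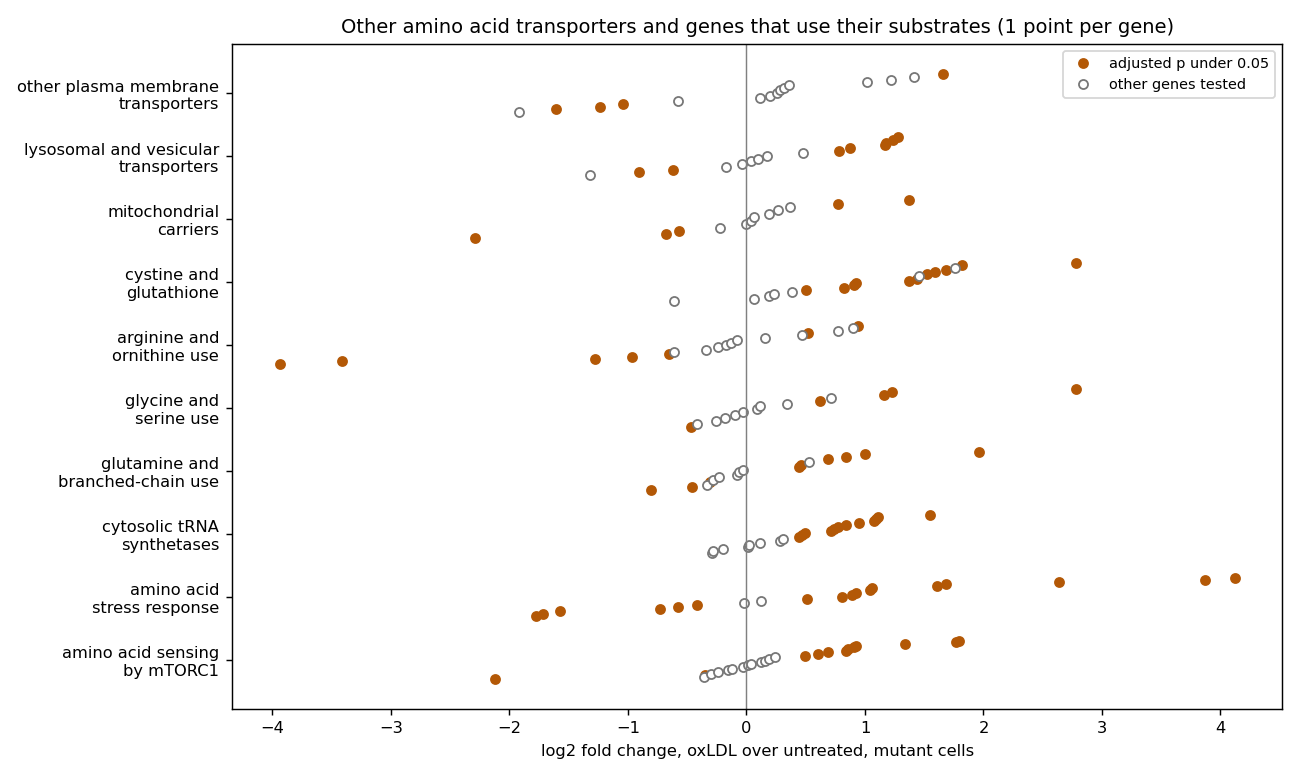
Log2 fold change of oxLDL over untreated mutant cells for each tested gene of 10 lists of other transporters and of genes that use, load or sense amino acids. Filled points passed at an adjusted p under 0.05 and open points did not. All points past the threshold lay above 0 for cystine and glutathione use (11) and tRNA synthetases (12), whereas plasma membrane transporters had 1 above and 3 below.

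The genes most like each transporter were found by the root mean square difference of mean-centred log2 CPM over the 6 libraries, as a description of these libraries only. Slc38a2 was followed most closely by Tmem251 (0.08), Ftl1 (0.09) and Pogk (0.09), and Slc3a2 by Zfp655 (0.07), Habp4 (0.07) and Fbxo30 (0.08). Ftl1, the ferritin light chain, measured 5011 and 4330.1 CPM in untreated and 11200 and 12200 CPM in treated mutant cells, and 4213.5 and 11600 CPM in the wild type. Slc7a11 was most like Rab15 (0.30), Rasd2 (0.36) and Ppap2b (0.55), all of them also lowest in untreated wild-type cells, with Ppap2b at 1.69 CPM there against 3.61 to 70.3 CPM elsewhere. Slc7a2 was most like Lrrc9 (0.43), Klra17 (0.46) and Mgll (0.46), and Mgll, which encodes monoacylglycerol lipase, measured 4.32 to 31.5 CPM in the mutant and 0.409 and 1.09 CPM in the wild type. Slc6a9 was most like Aqp9 (0.67), Gstm1 (0.69) and Kcnma1 (0.70). Slc36a2 was most like Pgm5 (0.55), 4930519F09Rik (0.62) and Nbea (0.64), each higher in the mutant. The larger values for Slc7a2, Slc6a9 and Slc36a2 go with low counts in some libraries. Rab15 and Rasd2, named beside Slc7a11, were also near the detection limit in the untreated wild-type library, at 0.0511 and 0.0 CPM.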

How the data were processed

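RNA of 6 macrophage libraries was analysed. The submitters' processing notes name Bowtie2 2.1.0, RSEM 1.2.15 and edgeR, and a human build although the symbols are mouse, so the mouse build is not known here. The authors' deposited tables hold expected counts from RSEM and, as a second unit, a TMM-normalised signal. Whole reads recovered from the signal made up 100% of values, at a tolerance of 1e-06, and equalled the rounded counts for at least 99.89% of genes.

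Expected counts were rounded. Of 17143 genes with any count, 12689 passed filterByExpr, and edgeR 4.0.16 (R 4.3.3, limma 3.58.1) gave quasi-likelihood F-tests on them, with TMM factors and Benjamini-Hochberg adjustment over all tested genes at 0.05. A model of 4 group means (2 residual degrees of freedom) gave every contrast but genotype across treatments, which came from an additive model (3). SE is the size of the log2 change divided by the square root of F. oxLDL in the wild type is a log2 ratio with a prior count of 2 and no test. The scripts were tested on simulated counts. Replicate counts of the mutant pairs varied 4.87 and 7.22 times as much as Poisson sampling, so neither mutant pair was 1 library deposited again. Shared sequence is the percentage of 75-base stretches of a gene's transcripts found in other genes.

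The members and gene lists were chosen with earlier results of these data known. Named were all 10 members, up to 5 other transporters with the largest change in each direction and those that passed between genotypes, up to 4 genes with the smallest p from each other list, the 3 genes most like each member, and Fermt3, of which 1 listed gene is not reported here. Slc7a6, Slc6a6, Slc36a1, Slc36a4, Slc29a3, Arg1, Nos2, the stress-list genes that fell and the marker genes given singly were added after their values were seen. Alternatives were other size factors, no filter, DESeq2 1.42.0, the replicate block, the recovered reads and leaving out each library.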

Additional observations from a re-analysis of the deposited data

Results flagged for a closer look

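Both results listed here are genes of the amino acid stress list, named because the oxLDL response differed between genotypes by the interaction test of edgeR. Cebpb, a partner of ATF4 on DNA, measured 31.2 and 28.1 CPM in untreated and 17.3 and 18.3 CPM in treated mutant cells, and 16.7 and 34.1 CPM in the wild type, so it was lower with oxLDL in the mutant and higher in the wild type (interaction log2 -1.76, SE 0.207, adjusted p = 0.0391, edgeR). Herpud1, a gene of endoplasmic reticulum stress, measured 52.9 and 56.8 CPM in untreated and 38.7 and 34.9 CPM in treated mutant cells, and 140.3 and 20.8 CPM in the wild type (interaction log2 2.18, SE 0.185, adjusted p = 0.0140, edgeR). Each rests on 1 wild-type library per treatment. The untreated wild-type library, like both treated mutant libraries, held pancreatic transcripts, whose part in these values was not tested.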

How the results depend on the processing

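Calls between genotypes depended on the settings far more than calls for oxLDL in the mutant, in fits with 2 or 3 residual degrees of freedom. The response to oxLDL in the mutant kept its sign for 9 of the 10 members in all 11 alternatives. Over all genes, without the low-count filter 1387 genes passed for genotype across treatments, 2435 in untreated cells, 974 in treated cells and 546 for the interaction, against 514, 896, 61 and 62. DESeq2 passed 1500 across treatments, 393 in treated cells and 221 for the interaction. The replicate block, whose numbers pair the mutant libraries only by label (correlation of deviations 0.204), gave 162 for the interaction and 5089 against 4515 for oxLDL in the mutant. A fit that pools the spread called 2946 genes for oxLDL in the wild type, against 1926 by size. The cause of these shifts was not tested. Leaving out 1 library at a time gave 2626 to 4529 calls for oxLDL in the mutant, 8 to 877 across treatments, 80 to 1822 in untreated cells, 5 to 473 in treated cells and 19 to 246 for the interaction.

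Among members, signs turned only where 1 library was left out and the value had not passed. Across treatments Slc3a2 ranged from -0.04 to 0.07, Slc6a9 from -0.57 to 0.59, Slc38a2 from -0.09 to 0.22 and Slc1a4 from -0.27 to 0.63 on the log2 scale. In untreated cells Slc3a2 ranged from -0.09 to 0.05 and Slc6a9 from -0.53 to 1.12. In treated cells Slc7a11 ranged from -0.24 to 0.35 and Slc3a2 from -0.09 to 0.17, and its interaction from -0.08 to 0.18. For oxLDL in the mutant Slc1a5 ranged from -0.23 to 0.07. Slc7a1 passed across treatments without the filter (adjusted p = 0.0166) and in DESeq2 (0.00800). Slc36a2 in treated cells passed in 3 of 9 alternatives, with adjusted p of 0.000700 to 0.211 over them. Depth limits Slc36a2 and Slc7a2 in the wild type and Slc6a9 in untreated cells, which rest on 4 to 35 counts.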
